A study of Mus musculus with 2 samples.

Results

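The transcripts of 6 genes of iron uptake, storage and release were described across the cell types of mouse bone marrow: Tfrc, Slc25a37, Fth1, Ftl1, Hmox1 and Slc40a1. The genes were chosen by name for their roles in iron handling, and each was listed in both deposited expression tables, among 7181 genes listed for the wild-type library and 6735 for the mutant library, of which 6001 were listed in both. Bone marrow cells (BMCs) freed of red blood cells were harvested from the limbs of C57BL/6J mice at postnatal day 21 and profiled on the droplet-based 10x Genomics platform, which reads a tag at the 3′ end of each transcript and counts molecules by unique molecular identifiers (UMIs). The WT library came from a mouse with both copies of exon 2 of Mbtps1, the gene of Site-1 protease (S1P), floxed and no Cre (S1P f/f). The Cko library came from an S1P f/f mouse that also carried Osx1-GFP::Cre, a Cre-GFP fusion under the osterix promoter, which is known for its activity in bone-forming progenitors. Both mice therefore carried the floxed alleles, and the transgene and the loss of S1P cannot be told apart in this pair. The paper proposes that the promoter is also active in blood-forming cells. It reports deletion of exon 2 in sorted neutrophils of every Cko mouse examined for it. There was 1 library per genotype, so no test between genotypes was possible, and every interval given below covers counting error only.

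After barcodes with fewer than 200 genes were left out, 6271 WT cells and 3662 Cko cells remained, with a median of 6977 and 7440 UMIs per cell. The libraries shared 28 barcodes. Mbtps1 stood at 31.9 CPM (UMIs of a gene per 1000000 UMIs) in WT and 31.2 CPM in Cko, which checks nothing, since the floxed exon lies outside the 3′ tag. Hemoglobin transcripts were found in every class, and in early B cell-like cells their median share was 0.304% in WT and 0.0767% in Cko, so hemoglobin RNA outside erythroid-like cells was more abundant in the WT library.

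Iron reaches most cells bound to transferrin, which the transferrin receptor Tfrc carries into the cell. Erythroid cells are known for the highest demand, since each molecule of heme needs an iron atom, and mitoferrin (Slc25a37) brings that iron into the mitochondrion. The ferritin heavy and light chains (Fth1, Ftl1) form the shell in which spare iron is stored. Macrophages of the marrow and spleen recover iron from aged red cells: heme oxygenase 1 (Hmox1) opens the heme ring and ferroportin (Slc40a1), the only known iron exporter, returns the metal to plasma. Several of these transcripts carry an iron-responsive element (IRE), a hairpin that iron regulatory proteins bind when iron is scarce. Binding in a 5′ untranslated region (UTR) holds back translation, and binding in the 3′ UTR of Tfrc protects the transcript from decay, so only the second kind is known to act on the quantity measured here.

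The hairpins are shown because they divide the 6 genes by how their transcripts are known to be regulated. Transcripts of the GENCODE annotation (release M21, build GRCm38) were searched on the transcribed strand for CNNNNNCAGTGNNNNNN, with the 5 bases after the leading C required to pair with the last 5 (G-T pairs allowed). The capitals below mark the 6-base loop.
Fth1, 5′ UTR, chr19:9982733-9982759, plus strand: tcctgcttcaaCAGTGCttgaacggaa
Ftl1, 5′ UTR, chr7:45459780-45459806, minus strand: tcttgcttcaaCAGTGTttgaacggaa
Slc40a1, 5′ UTR, chr1:45925466-45925492, minus strand: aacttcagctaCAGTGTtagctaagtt
Tfrc, 3′ UTR, chr16:32631220-32631246, plus strand: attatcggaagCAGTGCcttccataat
Tfrc, 3′ UTR, chr16:32631599-32631625, plus strand: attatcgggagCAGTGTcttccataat
Tfrc, 3′ UTR, chr16:32631664-32631690, plus strand: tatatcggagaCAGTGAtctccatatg
Tfrc, 3′ UTR, chr16:32631711-32631737, plus strand: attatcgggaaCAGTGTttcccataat

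A match was held by 3 of the 6 genes in a 5′ UTR, against 31 of the 20580 genes with an annotated 5′ UTR (0.151%), and by Tfrc alone of the 6 in the 3′ UTR, where 129 of 20978 genes (0.615%) held one. No match was found in a UTR of Slc25a37 or Hmox1, which says only that these letters are not there. Of 67 other iron genes with a 5′ UTR, Alas2, the erythroid enzyme that begins heme synthesis, was the 1 with a match. The genes themselves lie at chr16:32608920-32632794 (Tfrc), chr14:69241848-69285112 (Slc25a37), chr19:9980598-9985098 (Fth1), chr7:45457944-45459884 (Ftl1), chr8:75093621-75100589 (Hmox1) and chr1:45908068-45926523 (Slc40a1) of GRCm38.

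Cells were clustered on both libraries together without the 6 genes, and clusters were named from marker genes. Erythroid-like cells numbered 3393 in WT and 533 in Cko and were divided by the share of their UMIs that came from Hba-a1, Hba-a2, Hbb-bs and Hbb-bt, a measure that rises as red cell precursors mature. The ranges under 1%, 1 to 10%, 10 to 50% and 50% or more held 545, 521, 721 and 1606 WT cells and 92, 42, 106 and 293 Cko cells. The cut at 50% fell in a crowded part of the distribution, with 463 WT and 106 Cko cells within 1.25 times of it. A cluster of 195 WT and 29 Cko cells that joined hemoglobin genes with Ly6d, Retnlg and Mmp9 among its leading genes was left unnamed for that mixture. Of its cells 29.2% and 41.4% were called doublets, and it enters none of the erythroid values. The other classes were macrophage-like (51 WT and 9 Cko cells), monocyte-like (332 and 554), neutrophil-like (646 and 1185), granulocyte-monocyte progenitor-like or GMP-like (582 and 482), stem and progenitor-like (173 and 172), early B cell-like (776 and 544), B cell-like (74 and 73), T/NK-like (20 and 63) and stromal-like cells (29 and 18). The name of the stem and progenitor-like class, led by Ctla2a, is uncertain. A cluster led by Ctla2a kept this name with called doublets removed. It was named plasmacytoid dendritic at resolution 0.9, with the 6 genes kept in the clustering, and with at least 500 genes per barcode. Neutrophil marker genes supplied 249561 CPM in the WT and 196582 CPM in the Cko B cell-like class, against 2595 and 2950 CPM in the early B cell-like class, so values of the B cell-like class are given with that in view.

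The 6 transcripts were divided over the marrow unequally, but to different degrees. Erythroid-like cells made up 54.1% of WT cells and 58.1% of all WT UMIs. They held 84.9% of the Tfrc UMIs, 88.6% of the Slc25a37 UMIs and 83.4% of the Fth1 UMIs. Their share was nearer that of all UMIs for Ftl1, at 62.5%, and for Slc40a1, at 50.7%. Macrophage-like cells, 0.813% of WT cells, held 50.2% of all Hmox1 UMIs and 15.7% of those of Slc40a1. In the Cko library erythroid-like cells were 14.6% of cells and held 18.8% of all UMIs. They still held 66.7% of the Tfrc and 79.2% of the Slc25a37 UMIs, but 17.1% of the Ftl1 UMIs. Most Slc40a1 UMIs of that library, 54.5%, lay in neutrophil-like cells, which were 32.4% of its cells and held 24.4% of its UMIs.

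**Figure D1:**
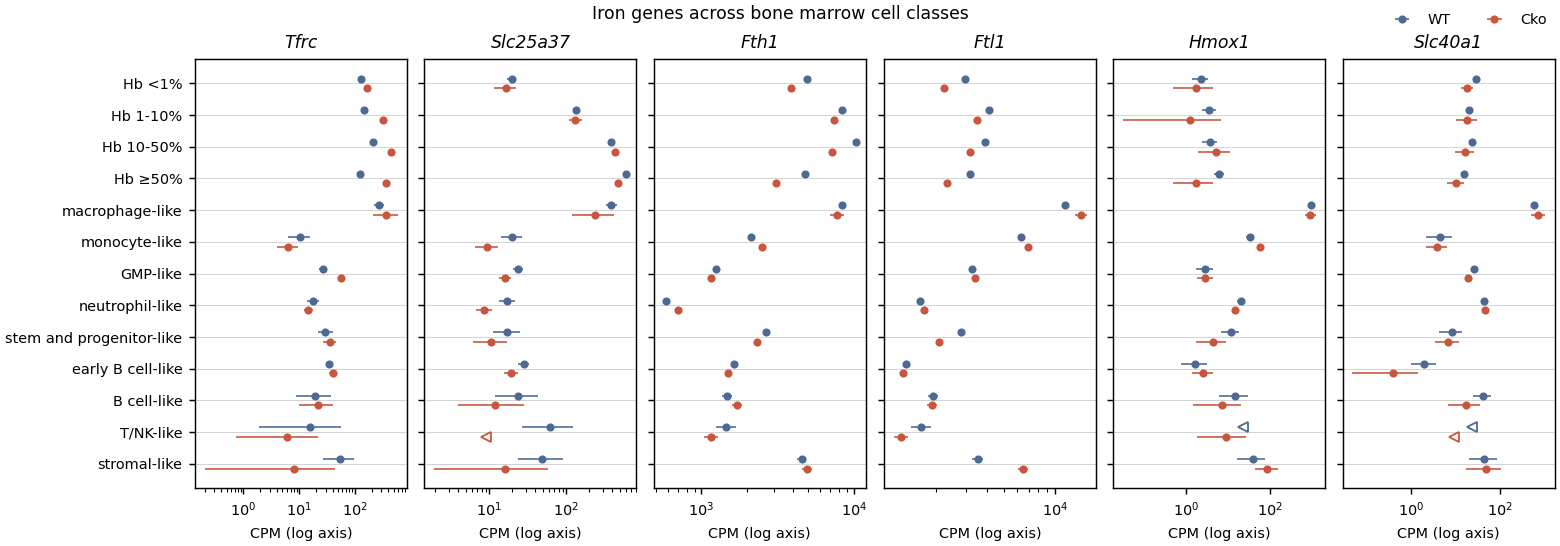
Each panel shows 1 gene and each row 1 cell class, with the level on the x axis in CPM (log axis), points for the WT (blue) and Cko (red) library and lines for exact 95% Poisson intervals; open triangles mark the level of 3 UMIs where none was counted. Hmox1 and Slc40a1 stand far to the right in macrophage-like cells of both libraries (965 and 948 CPM, 595 and 733 CPM), and Slc25a37 rises down the 4 hemoglobin ranges.

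Tfrc, the uptake receptor, was highest in erythroid-like cells and in the macrophage-like class taken whole. In the 14 WT macrophage-like cells under 1% hemoglobin its level was 116 CPM (55.4 to 213), and the 7 such Cko cells held 1 UMI. In WT the Tfrc level was 271 CPM in all macrophage-like cells and 216 CPM at 10 to 50% hemoglobin, and the counting intervals of these neighbours overlapped. The other erythroid ranges followed at 144, 128 and 123 CPM. Every other named WT class lay at 54.1 CPM or below, down to 10.3 CPM in monocyte-like cells. In Cko the order of the ranges differed, with 441 CPM at 10 to 50% hemoglobin, 368 CPM at 50% or more, 316 CPM at 1 to 10% and 164 CPM under 1%.

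Slc25a37, the mitochondrial iron importer, rose steeply with hemoglobin. Its WT level went from 19.6 CPM under 1% through 136 and 379 CPM to 599 CPM at 50% or more. The Cko levels were 16.4, 132, 428 and 470 CPM, of which the last 2 overlapped in their intervals. Under 1% hemoglobin the gene was no higher than in early B cell-like cells, which stood at 28.3 CPM in WT and 19.5 CPM in Cko. With every cell thinned to 3000 UMIs, 3.85% of WT cells under 1% hemoglobin held a Slc25a37 UMI and 77% of those at 50% or more. The share was 5.67% in WT early B cell-like cells, so under 1% hemoglobin the transcript could not be told from background.

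The ferritins were abundant throughout, and in CPM they were highest in the middle ranges. Fth1 stood at 4894, 8390, 10261 and 4805 CPM along the 4 WT ranges and at 3842, 7445, 7214 and 3097 CPM along the Cko ranges. Ftl1 moved less, with 2959, 4122, 3875 and 3163 CPM in WT and 2235, 3517, 3176 and 2320 CPM in Cko. Scaled to UMIs outside the 4 hemoglobin genes the shape was a rise instead. On that scale Fth1 stood at 4912, 8742, 13750 and 16730 CPM in WT and at 3846, 7774, 10362 and 10514 CPM in Cko, and Ftl1 went from 2969 to 11011 CPM in WT and from 2238 to 7875 CPM in Cko. Near-identical copies of the ferritin genes exist in the genome, among them Ftl1-ps1, which the tables list under its older name Gm10116. How the counting divided reads between such copies was not given in the sources used here, so ferritin levels are uncertain to that extent.

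Hmox1 and Slc40a1 were scarce in erythroid-like cells. The 4 WT ranges held 22, 27, 24 and 57 Hmox1 UMIs, equal to 2.25, 3.66, 3.78 and 6.15 CPM, and the Cko ranges held 4, 1, 6 and 4 UMIs. Of the 57 UMIs at 50% or more hemoglobin, 17.5% came from 1 cell. Early B cell-like cells, taken as a measure of background, stood at 1.66 CPM in WT and 2.62 CPM in Cko, and the counting intervals of the erythroid ranges overlapped these in all but the last WT range. Slc40a1 was above the early B cell-like level, at 29.5, 20.8, 23.6 and 15.6 CPM in the WT ranges against 2.03 CPM in early B cell-like cells. The Cko ranges stood at 18.2, 18.6, 16.4 and 10.3 CPM against 0.403 CPM. After thinning, 7.71% of WT cells under 1% hemoglobin held a Slc40a1 UMI, and 0.515% of WT early B cell-like cells did. B cell-like cells, the class first planned as background, carry the neutrophil marker UMIs given above. They stood at 41.3 CPM of Slc40a1 in WT and 17 CPM in Cko, and at 15.2 and 7.28 CPM of Hmox1. Against that class no erythroid range was higher beyond counting error, so the reading depends on the background chosen.

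**Figure D2:**
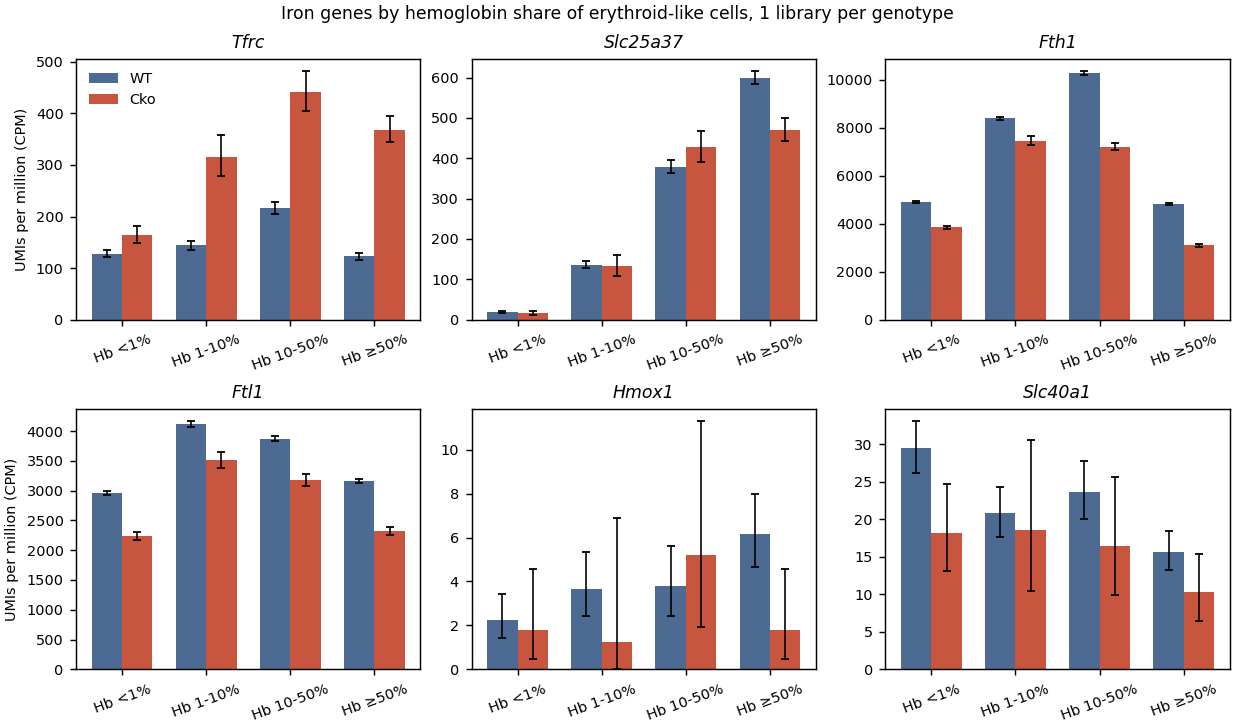
Bars give the level of each gene in CPM (y axis from 0) in 4 hemoglobin (Hb) ranges of erythroid-like cells for WT (blue) and Cko (red), with exact 95% Poisson intervals. Tfrc is higher in Cko in all 4 ranges (368 against 123 CPM at 50% or more), Fth1 and Ftl1 are lower in all 4, and Slc25a37 climbs from 19.6 to 599 CPM in WT.

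Cells with hemoglobin at 50% or more were then set against those under 1% within each library. In WT, 2 of the 6 genes differed by 2-fold or more, and both were higher: Slc25a37 by 30.6-fold (log2 4.93, 95% interval 4.73 to 5.15) and Hmox1 by 2.73-fold (log2 1.45, 0.71 to 2.23). Among 5517 genes with at least 100 UMIs in these ranges, 83.4% passed 2-fold in either direction, with a median log2 ratio of -2.42. Hmox1, with 57 and 22 UMIs, was below that minimum. In Cko, Slc25a37 was 28.6-fold higher (log2 4.84, 4.37 to 5.35) and Tfrc 2.24-fold higher (log2 1.16, 0.99 to 1.35), where 81.3% of 3163 genes passed 2-fold and the median was -2.13. The remaining genes kept their CPM to within 2-fold while most other transcripts fell. Tfrc had a log2 ratio of -0.06 in WT and Hmox1, with 4 UMIs in each range, one of 0.01 in Cko. Fth1 had a log2 ratio of -0.03 in WT and -0.31 in Cko, Ftl1 0.10 and 0.05, and Slc40a1 -0.92 and -0.83.

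Hemoglobin supplied 71.3% of all UMIs in the last WT range, which lowers the CPM of every other gene. With CPM taken over UMIs outside the 4 hemoglobin genes, 5 of the 6 genes passed 2-fold in WT and 4 in Cko, each of them higher, where 62.4% and 64.7% of all genes passed in either direction. On that scale the WT log2 ratios were 6.73 for Slc25a37, 3.24 for Hmox1, 1.89 for Ftl1, 1.77 for Fth1, 1.73 for Tfrc and 0.88 for Slc40a1, beside a median of -0.63 over all genes. The median UMI count per cell fell from 17931 to 5548 across the WT ranges, so a level in CPM is not a number of transcripts per cell. Counted per cell, the median WT cell held 89 Fth1 UMIs under 1% hemoglobin, 120 at 1 to 10%, 85 at 10 to 50% and 25 at 50% or more. For Ftl1 the medians were 50, 56, 30 and 17 UMIs. For Slc25a37 they were 0, 1, 3 and 3, and in Cko they were 0, 2, 4 and 3.

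The comparison of Cko with WT was made within each hemoglobin range, because the ranges were filled differently. Of 24 gene and range pairs, 5 passed 2-fold, and the 3 that were higher in Cko were all Tfrc. Under 1% hemoglobin no gene of the 6 passed, where 4.12% of 4855 genes did. At 1 to 10% Tfrc and Hmox1 passed (3.05% of 4399 genes), at 10 to 50% Tfrc alone (4.08% of 3728 genes), and at 50% or more Tfrc and Hmox1 (10.3% of 2740 genes). These shares are over genes with at least 100 UMIs, a minimum that the Hmox1 pairs did not reach.

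Tfrc was higher in Cko by 1.28-fold under 1% hemoglobin (log2 0.35, 0.18 to 0.52), by 2.19-fold at 1 to 10% (1.13, 0.93 to 1.33), by 2.04-fold at 10 to 50% (1.03, 0.88 to 1.18) and by 3-fold at 50% or more (1.58, 1.45 to 1.72). Its ratio lay above 89.3%, 99.2%, 99.1% and 98.2% of all genes in the 4 ranges. The median Cko cell held 3.5, 6, 4 and 2 Tfrc UMIs along the ranges and the median WT cell 2, 2, 2 and 0. At a fixed depth of 3000 UMIs, 41.3%, 47.6%, 64.2% and 56.3% of Cko cells held a Tfrc UMI, against 29.5%, 33.8%, 47.9% and 30.2% of WT cells. The exact 95% binomial intervals of these shares lay apart in the last 2 ranges, at 54.3 to 73.2% against 44.1 to 51.6% and at 50.4 to 62.1% against 28 to 32.5%.

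**Figure D3:**
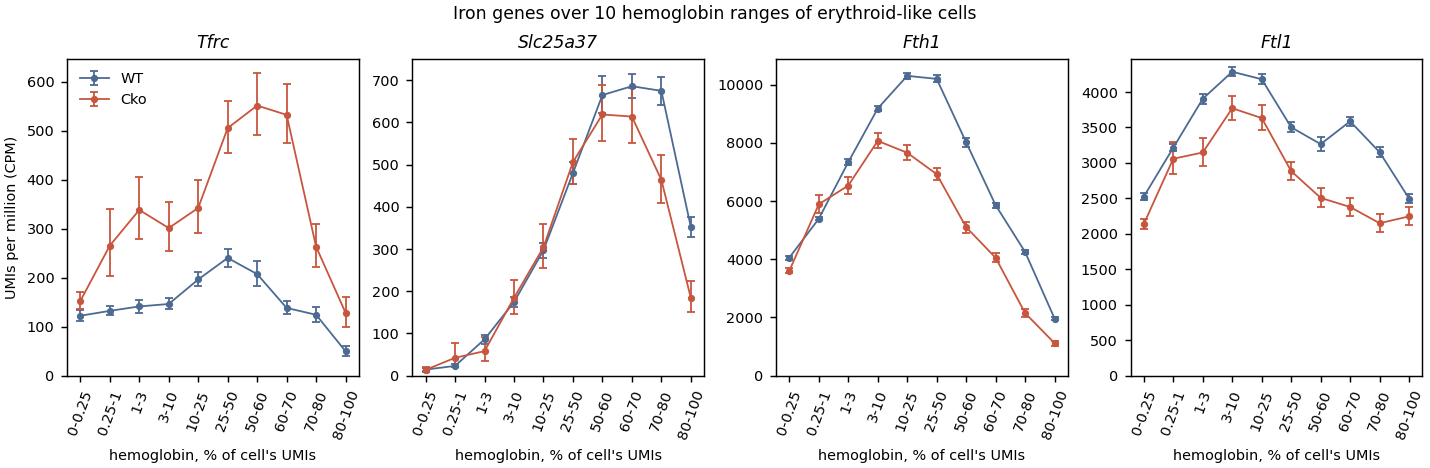
Levels in CPM (y axis from 0) of 4 genes over 10 narrower hemoglobin ranges (x axis, percent of a cell's UMIs) are drawn for WT (blue) and Cko (red) erythroid-like cells, with exact 95% Poisson intervals. The Tfrc curve of Cko stays above that of WT over all 10 ranges and is widest apart at 60 to 70% (532 against 138 CPM), while Fth1 is lower in Cko in 9 of 10.

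Since cells within a broad range could differ in maturity between the libraries, the erythroid-like cells were also divided into 10 narrower ranges. Tfrc was higher in Cko in 10 of 10, by 1.25-fold to 3.86-fold, and its counting intervals lay apart in all 10. At 60 to 70% hemoglobin the level was 138 CPM in 566 WT cells and 532 CPM in 69 Cko cells. At 80% or more it was 49.4 CPM in WT and 128 CPM in Cko, so Tfrc was lower in the most hemoglobin-rich cells of both. Clusters gave the same direction, from 130 CPM in WT to 179 CPM in Cko in the cluster led by Mt2, 192 to 413 CPM in that led by Acp5, 151 to 537 CPM in that led by Gch1 and 60 to 184 CPM in that led by Bpgm. At 50% or more hemoglobin, 77% of WT and 52.9% of Cko cells held at least 1 UMI of Top2a, Mki67 or Ccnb1, genes of dividing cells. In the cells of that range with no such UMI the Tfrc ratio was 1.68 (1.32 to 2.04) on the log2 scale, beside 1.58 over all cells, and the part of cell division in the difference was not tested.

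Storage transcripts were lower in Cko across the erythroid ranges, by less than 2-fold. The Fth1 ratio was -0.35, -0.17, -0.51 and -0.63 on the log2 scale along the 4 ranges, and the Ftl1 ratio -0.40, -0.23, -0.29 and -0.45, with intervals that all excluded 0. Under 1% hemoglobin the Fth1 ratio turned to 0.23 with the libraries clustered separately and to 0.03 with classes from marker scores. These sat inside the middle 90% of all genes, which spanned -0.88 to 0.44 at 10 to 50% hemoglobin. Over the 10 narrower ranges the Cko interval lay below that of WT in 9 for each gene. The 1 exception for Fth1 was 0.25 to 1% hemoglobin, with 12 Cko cells, where Cko was higher, at 5890 against 5391 CPM. That narrow range held 357 of the 545 WT cells under 1% hemoglobin and 12 of the 92 Cko cells, so the range under 1% was filled differently in the libraries. Early B cell-like cells had a median hemoglobin share of 0.304% in WT and 0.0767% in Cko. The part of hemoglobin RNA from outside the cells in that filling was not tested.

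The log2 ratio of Slc25a37, Cko over WT, was -0.25 (-0.80 to 0.26), -0.04 (-0.34 to 0.25) and 0.17 (0.03 to 0.31) in the first 3 ranges and -0.35 (-0.44 to -0.25) at 50% or more. Of the 10 narrower ranges 2 had intervals that lay apart, with 464 against 675 CPM at 70 to 80% hemoglobin and 184 against 352 CPM at 80% or more. Slc40a1 was lower in Cko under 1% hemoglobin (-0.70, -1.21 to -0.22), and the intervals of the other 3 ranges included 0. The value under 1% turned to 1.44 with separate clustering and 1.77 in cells with no mitosis UMI, both with intervals that included 0. Few cells had no such UMI, since 98% of WT and 97.8% of Cko cells under 1% held one. The Hmox1 ratios that passed 2-fold rested on 1 Cko UMI at 1 to 10% hemoglobin (-1.56, -6.92 to 1.04) and on 4 Cko UMIs at 50% or more (-1.78, -3.71 to -0.35).

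**Figure D4:**
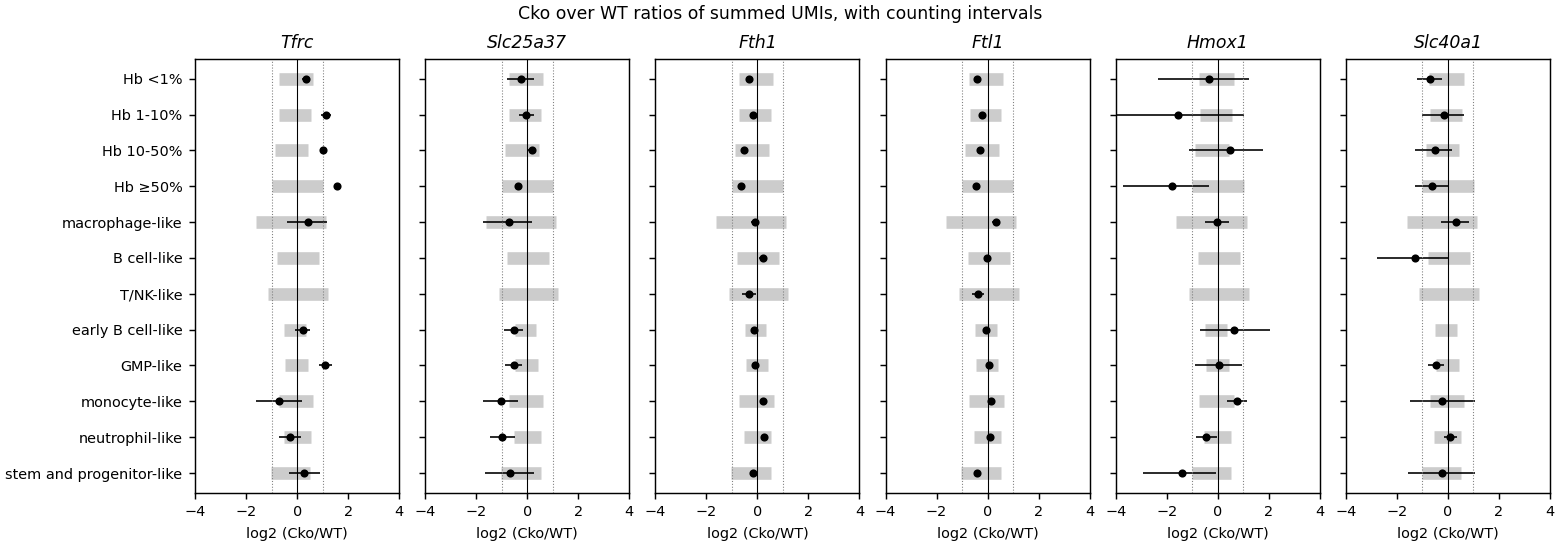
Points give the Cko over WT ratio of summed UMIs (x axis, log2) for each gene (panel) and class (row) with at least 20 UMIs, with exact 95% counting intervals, grey bars the middle 90% of all genes in that class and dotted lines a 2-fold difference; the Hmox1 interval at 1 to 10% hemoglobin runs past the left edge. Tfrc lies beyond the grey bar in the 3 ranges from 1% hemoglobin up and in GMP-like cells.

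Macrophage-like cells were marked by C1qa, C1qb, C1qc and Vcam1, and Hmox1, although kept out of the clustering, was among the 10 leading genes of their cluster. In WT, 5 of the 6 genes were at least 2-fold higher in these 51 cells than in all other cells, where 30.2% of 6660 genes passed 2-fold in either direction. Hmox1 stood at 965 CPM against 6.56 CPM, a ratio of 147-fold (log2 7.20, 6.99 to 7.41) that exceeded 99.8% of genes. Slc40a1 was 27.2-fold higher, with 595 against 21.9 CPM (4.77, 4.56 to 4.97). Of the ferritins, Ftl1 was 3.6-fold higher at 11382 against 3159 CPM, and Fth1 1.79-fold higher at 8324 against 4641 CPM. Tfrc was 2.72-fold and Slc25a37 2.12-fold higher. The median WT macrophage-like cell held 5 Hmox1 and 3 Slc40a1 UMIs, and at 3000 UMIs per cell 82% held each of them, against 0.773% and 0.515% of early B cell-like cells.

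The Tfrc and Slc25a37 values moved with hemoglobin. Of the 51 WT macrophage-like cells, 37 had a hemoglobin share of 1% or more, and hemoglobin supplied 21.5% of the UMIs of the class. In the 14 cells under 1%, Slc25a37 had 0 UMIs, which allows up to 42.6 CPM, and Tfrc stood at 116 CPM (55.4 to 213). In the 37 cells at 1% or more the levels were 499 CPM and 317 CPM. With hemoglobin-bearing non-erythroid cells left out, the Tfrc log2 ratio over other WT cells was 0.21, beside 1.44 with them. The erythroid markers together supplied 220476 CPM of the WT class, a value that includes the 4 hemoglobin genes and so mostly repeats their share. The other 4 genes did not need those cells: in the 14 cells under 1% hemoglobin Hmox1 stood at 1064 CPM, Slc40a1 at 751 CPM, Ftl1 at 15816 CPM and Fth1 at 9087 CPM. Scrublet called no doublet among the macrophage-like cells of either library.

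The 9 Cko macrophage-like cells gave 948 CPM for Hmox1, 733 CPM for Slc40a1, 14158 CPM for Ftl1, 7779 CPM for Fth1, 366 CPM for Tfrc and 237 CPM for Slc25a37. Between the genotypes 0 of the 6 genes passed 2-fold, where 18.0% of 484 genes with enough UMIs did. The log2 ratio was -0.03 (-0.51 to 0.43) for Hmox1, 0.30 (-0.26 to 0.83) for Slc40a1 and 0.31 (0.19 to 0.43) for Ftl1. Over UMIs outside hemoglobin the Ftl1 ratio was 0.11 (-0.01 to 0.23), that of Fth1 -0.31 (-0.47 to -0.15) and that of Slc25a37 -0.91 (-1.95 to -0.03), and with macrophages taken by C1q UMIs the Ftl1 ratio was -0.01. Of the 44 Hmox1 UMIs, 43.2% came from 1 cell. Among the 9 cells 2 had hemoglobin at 1% or more, and they held 16 of the 17 Tfrc UMIs and all 11 Slc25a37 UMIs.

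Outside the erythroid and macrophage classes, Ftl1 was next highest in monocyte-like cells, at 6284 CPM in WT and 6912 CPM in Cko. Fth1 was lowest in neutrophil-like cells, at 584 and 701 CPM. Hmox1 followed macrophage-like cells at a distance in stromal-like cells (39.3 and 87.7 CPM, from 8 and 11 UMIs) and monocyte-like cells (34.5 and 58.2 CPM). Macrophage marker genes stood at 5037 CPM in the WT and 7914 CPM in the Cko stromal-like class. Their part in the Hmox1 and Slc40a1 values of that class was not tested. Slc40a1 stood at 44.6 and 47.6 CPM in neutrophil-like cells, close to stromal-like cells (44.2 and 47.8 CPM, from 9 and 6 UMIs), and 11.6% of thinned WT cells and 14.9% of thinned Cko cells held a UMI. The cluster of neutrophil-like cells led by Mmp8 stood at 35.9 CPM (23.3 to 53.1) in WT and 64.9 CPM (55.4 to 75.5) in Cko, and that led by Chil3 at 46.3 CPM (39.5 to 54) and 39.9 CPM (35 to 45.4). A finer clustering of all cells was also read, whose clusters do not match the classes cell for cell. Its GMP-like clusters were led by Elane, with 47.1 CPM of Slc40a1 in WT and 47.8 CPM in Cko, and by Ctsg, with 4.61 and 4.65 CPM.

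Across the 7 of these classes with at least 20 cells in both libraries, 4 of 42 gene and class pairs passed 2-fold between the genotypes, where 3.23% of 23553 pairs did over all genes. The 1 that was higher in Cko was Tfrc in GMP-like cells, at 26.3 CPM in WT and 56.9 CPM in Cko (2.16-fold, log2 1.11, 0.87 to 1.37), beyond 99.4% of genes in that class. Tfrc was also higher in Cko in both GMP-like clusters of the finer clustering, at 28 against 46.9 CPM in the cells led by Elane and 23.9 against 56.9 CPM in those led by Ctsg. In early B cell-like cells Tfrc stood at 34.5 and 40.1 CPM (0.21, -0.08 to 0.51), and in neutrophil-like cells at 17.8 and 14.6 CPM (-0.28, -0.71 to 0.15). The pairs that were lower in Cko were Slc25a37 in monocyte-like cells (19.6 to 9.43 CPM, log2 -1.05, -1.74 to -0.38), Slc40a1 in B cell-like cells (19 and 7 UMIs, -1.28, -2.78 to 0.03) and Hmox1 in stem and progenitor-like cells (17 and 7 UMIs, 9 of the 17 from 1 cell). Slc25a37 also stood lower in Cko in neutrophil-like cells, at 17.1 against 8.68 CPM, and in GMP-like cells, at 23.7 against 16.3 CPM. These classes also carried more hemoglobin RNA in WT than in Cko, at 0.643% against 0.102% of the UMIs of neutrophil-like cells, and its part in the Slc25a37 values was not tested. Hmox1 in monocyte-like cells was 1.69-fold higher in Cko (0.75, 0.37 to 1.15), but the class was made up differently in the libraries. In the finer clustering the monocyte-like cells led by Fn1 numbered 285 in WT and 276 in Cko and stood at 30.4 CPM (23.1 to 39.2) and 32.4 CPM (25.7 to 40.3). The monocyte-like cells led by Sirpb1c numbered 34 and 255 and stood at 90 CPM (46.5 to 157) and 111 CPM (93.3 to 132), so the intervals of the genotypes overlapped within each cluster. Macrophage marker genes stood at 186 CPM in the WT and 1013 CPM in the Cko monocyte-like class, and their part in the Hmox1 value was not tested.

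Genes with the most similar profile to each of the 6 were found among 5132 genes over 24 pairs of class and library, which share depth and cells, so Pearson's r is a description only. Slc25a37 was closest to Slc4a1 (r = 0.966), the band 3 anion exchanger of red cells, and Trim10 (0.945). Tfrc was closest to the amino acid transporter Slc43a1 (0.921), Odc1 (0.909), which begins polyamine synthesis, and Mylk3 (0.906). Fth1 had r = 0.918 with Josd2 and 0.916 with Metap2. Ftl1 was closest to Gm10116 (0.894), its own copy, then to the lysosomal protease gene Ctsb (0.856) and Usp25 (0.786). Hmox1 followed Sirpa (0.853), C1qb (0.844) and Psap (0.772), and Slc40a1 followed Acsl1 (0.786), Gapvd1 (0.767) and Abcc5 (0.735) more loosely.

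A list of 69 further genes of iron, heme and redox handling was read in the same contrasts. Of these, 49 were listed in each library and 46 in both. Between the first and last hemoglobin ranges 11 of 42 list genes with enough UMIs were at least 2-fold higher and 20 lower in WT, with a median log2 ratio of -0.91. In Cko 14 of 35 were higher and 14 lower, with a median of 0.26. Of all genes 83.4% in WT and 81.3% in Cko passed 2-fold in these contrasts, so no larger share, 73.8% and 80%, was found for the list genes. Among those higher in both libraries were the heme synthesis genes Alas2, Uros, Urod, Ppox and Fech, joined by Isca1 of iron-sulfur cluster assembly, the mitochondrial transporter Abcb10, the heme transporters Slc48a1 and Abcg2, and Gclm of glutathione synthesis. Alas2 went from 16.1 to 2149 CPM in WT and from 4.89 to 2962 CPM in Cko, and Fech, which inserts the iron, from 89.3 to 762 CPM and from 64 to 713 CPM. Among those lower in both were Tfr2, the second transferrin receptor (47.6 to 3.45 CPM in WT), the iron chaperones Pcbp1 and Pcbp2, Nfs1 of iron-sulfur cluster assembly, Tmem14c, Blvra, Nfe2l2, Keap1, Prdx1, the metallothioneins Mt1 and Mt2, and the neutrophil products Lcn2 and Ltf. With CPM taken over UMIs outside hemoglobin the WT counts were 19 higher and 9 lower, 66.7% of the list beside 62.4% of all genes. Of the genes named as lower, only Tfr2, Mt1 and Mt2 stayed at least 2-fold lower in both libraries on that scale. The WT log2 ratio there was -0.08 for Pcbp2, -0.05 for Tmem14c, 0.03 for Keap1, 0.27 for Blvra, -0.10 for Lcn2 and 0.39 for Ltf. It was -0.49 for Pcbp1 and Nfs1, -0.84 for Nfe2l2 and -1.12 for Prdx1.

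In WT macrophage-like cells 9 of 47 list genes were at least 2-fold higher than in other cells and 4 lower. Together these were 27.7% of the list, close to the 30.2% of all genes past 2-fold in that contrast. The higher ones were Trf, which encodes transferrin (394 against 6.54 CPM), Spic, a transcription factor of iron-recycling macrophages (214 against 0.787 CPM), the hemopexin receptor Lrp1 (138 against 2.18 CPM), Hfe (26.1 against 2.91 CPM), Slc48a1, which moves heme out of the phagolysosome (232 against 70.3 CPM), Blvra, which acts on the biliverdin that Hmox1 makes (138 against 50.5 CPM), the heme-sensing repressor Bach1, Aco1 and Slc25a28. The lower ones included Hp, Lcn2 and Alas1.

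Between the genotypes 1 list gene was higher and 4 lower by 2-fold under 1% hemoglobin, of 40 with enough UMIs. At 1 to 10% none of 37 passed, at 10 to 50% 1 of 37 was lower, and at 50% or more 2 of 35 were higher. Along the 4 ranges these were 12.5%, 0%, 2.7% and 5.71% of the list genes, beside 4.12%, 3.05%, 4.08% and 10.3% of all genes. The list share was thus above that of all genes only under 1% hemoglobin. The list genes named next were chosen after their values were seen. Mt1 stood at 9.38 CPM in WT and 138 CPM in Cko at 50% or more (log2 3.88, 3.53 to 4.24), and Mt2 at 6.79 and 89.7 CPM (3.72, 3.31 to 4.15). Mt2 was also the 1 higher gene under 1% hemoglobin, at 729 and 1531 CPM. Lower in Cko in that range were Abcb10 (36.7 to 11.1 CPM), Alas2 (16.1 to 4.89 CPM), Uros (39 to 16 CPM) and Hebp1 (297 to 146 CPM). The median hemoglobin share in that range was 0.0645% of UMIs in Cko and 0.294% in WT. These shares were close to the 0.0767% and 0.304% of early B cell-like cells. The part of RNA from outside the cells in these values was not tested. Steap3, the ferrireductase that works beside Tfrc in the endosome, fell from 37.5 CPM in WT to 14.7 CPM in Cko at 10 to 50% hemoglobin (-1.35, -2.15 to -0.64).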

How the data were processed

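Bone marrow cells of 1 WT and 1 Cko mouse were profiled with the 10x Genomics 3′ kit (v2). The authors deposited 1 table of UMI counts per gene and barcode for each library, not normalized, and the submitters' processing notes name Cell Ranger and GRCm38, without versions. Each table lists only genes that reach 4 UMIs in some cell, so a gene not listed is not 0. The 6 genes and all gene lists were chosen with earlier results of these data known. Totals were 56382459 UMIs in WT and 34447224 in Cko. Cells were clustered with Seurat 5.3.0 (2000 variable genes without the 6 genes and the Stfa genes, 20 components, resolution 0.4), and clusters took a name from at least 3 fixed markers. Clusters led by hemoglobin genes together with markers of another class were left unnamed, a rule added after the data were seen. UMIs were summed per class and library and scaled to CPM. Intervals are exact 95% Poisson, exact conditional (ratios) and exact binomial (shares). A call is a 2-fold difference with at least 20 UMIs for the 6 genes and 100 for other genes. Doublets called by Scrublet in scanpy 1.11.5 (122 WT, 38 Cko) were kept. For named genes, the rule was the 6 genes, the 3 most similar to each by Pearson correlation of log2(CPM + 1), Mbtps1, and list genes past 2-fold in the same direction between erythroid ranges in both libraries or in WT macrophage-like cells. Some genes that this rule names are not reported here. The steps were tested on simulated counts. The alternatives are given in the closing section.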

Additional observations from a re-analysis of the deposited data

Results flagged for a closer look

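Of the 6 genes, 4 had Cko over WT ratios whose counting intervals lay on opposite sides of 0 in different classes, and these differences between classes were not tested. Slc25a37 was higher in Cko at 10 to 50% hemoglobin (log2 0.17) and lower in monocyte-like cells (-1.05), a gap of 1.22. Fth1 was higher in neutrophil-like cells (0.26) and lower at 50% or more hemoglobin (-0.63), a gap of 0.89. The neutrophil cluster led by Mmp8 held 170 of 646 WT and 547 of 1185 Cko cells, at 893 and 1070 CPM of Fth1, and in the cluster led by Chil3 the intervals overlapped, at 523 and 539 CPM. For Ftl1 the gap was 0.76, between macrophage-like cells (0.31) and the range at 50% or more hemoglobin (-0.45). The macrophage ratio was 0.11 (-0.01 to 0.23) over UMIs outside hemoglobin and -0.01 with macrophages taken by C1q UMIs. Hmox1 was higher in monocyte-like cells (0.75) and lower at 50% or more hemoglobin (-1.78), a gap of 2.53 that rests on 4 Cko UMIs at 50% or more hemoglobin. Within the finer monocyte clusters the genotypes overlapped, at 30.4 and 32.4 CPM and at 90 and 111 CPM.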

How the results depend on the processing

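No paired analysis was possible because each genotype had 1 library and no replicate number. In all, 16 alternatives were run, 1 of them (the mixed cluster kept as erythroid) chosen after seeing the data. The Tfrc ratio of Cko over WT stayed above 0 in every alternative that gave a value in each of the 4 hemoglobin ranges, from 1.51 to 1.68 at 50% or more and from 0.26 to 1.99 under 1%. The 1.99 came from cells with no mitosis UMI. Under 1% hemoglobin 98% of WT and 97.8% of Cko cells held such a UMI, so values of that setting there rest on few cells. Genes past 2-fold between erythroid ranges numbered 5 in WT and 4 in Cko (2 each as reported) with CPM taken over UMIs outside hemoglobin, 6 and 5 relative to the median of all genes, and 1 and 1 in cells with no mitosis UMI. The WT count was 1 with the 6 genes kept in the clustering. Pairs past 2-fold between genotypes in erythroid ranges numbered 9 with separate clustering, 3 with limits at 2, 20 and 60%, and 2 without mitosis UMIs, against 5. Without mitosis UMIs the ranges at 1 to 10% and 10 to 50% gave no value, since 100% of their Cko cells held such a UMI. That count therefore cannot be set against the 5. In other classes they numbered 1 at 10 clusters, 13 with separate clustering, 16 with classes from marker scores and 9 with no minimum of UMIs, against 4. In macrophages the count over other WT cells was 3 with marker scores and 3 with macrophages taken by C1q UMIs, against 5, and each gave 1 gene past 2-fold between genotypes, against 0. The Tfrc rise across Cko ranges turned to -0.34 with separate clustering and -0.54 in cells with no mitosis UMI, few of which lay under 1% hemoglobin. Slc40a1 in B cell-like cells turned to 0.70 with separate clustering and 0.06 with marker scores. Under 1% hemoglobin Fth1 turned to 0.23 with separate clustering and 0.03 with marker scores, and Slc40a1 to 1.44 with separate clustering and 1.77 without mitosis UMIs. The cause of these changes was not tested. Separate clustering gave no Cko macrophage-like class. Precision was lowest where few UMIs were counted, as for Hmox1 in Cko erythroid-like cells.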
